A study of Glycine max with 30 samples.

Results

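Chromatin accessibility in early subjective night was compared between the 3 soybean ATAC-seq libraries labelled ZT16 and the 3 labelled ZT12, 6 of the 30 samples of the series. All 6 came from first trifoliate leaves of wild-type Williams 82 (Ws82), without any mutation or added agent. The plants were grown in short days of 8 h light and 16 h dark and then moved to constant light, where sampling of the series began after 1 day. Samplings were 4 h apart under the same free-running conditions, and the study counts the same times from the start of constant light, a cycle later than the labels. Both ZT16 and ZT12 fall in the 16 h that had been dark in the preceding short days, which is what subjective night means here. Each time point had replicate libraries L, M and R, which the series text calls independent biological replicates, and each library had a peak list of its own. For each time point there was also a merged list of accessible regions. The 2 merged lists joined into 26780 union regions, which are the members described here.

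In ATAC-seq, the transposase Tn5 inserts sequencing adapters into DNA that is free of nucleosomes, so that piles of fragments (peaks) mark accessible stretches such as promoters and enhancers. In plants, the circadian clock is a network of transcription factors that repress each other in turn, morning factors of the LHY family early in the day, pseudo-response regulators after them, and the evening complex with LUX around dusk and in the night. These proteins bind open regulatory DNA, which is why accessibility is followed round the clock in constant light. A peak list holds what passed the peak caller's threshold, so that a region without a listed peak need not be closed. Positions are those of the Wm82.a2.v1 assembly, counted from 1. Genes were not assigned to regions, since no annotation of that assembly was used here, and the tissue label was therefore not checked against marker genes.

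In number of peaks and covered length, the libraries of a time point differed from each other by more than the means of the time points did. The ZT16 lists held 15031, 19979 and 10689 peaks in libraries L, M and R, against 10813, 21804 and 16198 peaks in the ZT12 libraries L, M and R. The ranges overlapped, and the means were 15233 ± 4648 peaks at ZT16 and 16272 ± 5496 peaks at ZT12 (SD, n = 3 each). Peaks covered 4.59 ± 1.30 Mb at ZT16 and 5.08 ± 1.68 Mb at ZT12. The median peak width was 268, 245 and 254 bp at ZT16, against 277, 267 and 255 bp at ZT12. The share of peaks in the outer 25% at either end of a chromosome, which approximates the gene-rich arms, was 74.0% ± 1.53 at ZT16 and 71.5% ± 3.64 at ZT12. In 2-sided exact permutation tests of these measures and of the background, p was between 0.4 and 0.7 and the adjusted p was 0.7 throughout. With 3 libraries against 3, no such test can go below 0.1. ZT12 library R stood apart from the other libraries: its background coverage was 0.784 fragments per base, whereas the other ZT12 libraries had 0.595 and 0.495 and the ZT16 libraries had 0.554, 0.514 and 0.521. It also had the lowest share of peaks in the outer 25% of the chromosomes (67.5%). Without it, the background difference (ZT16 minus ZT12) was -0.0153 fragments per base in place of -0.095, and the difference in the outer share was 0.514 in place of 2.51 percentage points.

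**Figure D1:**
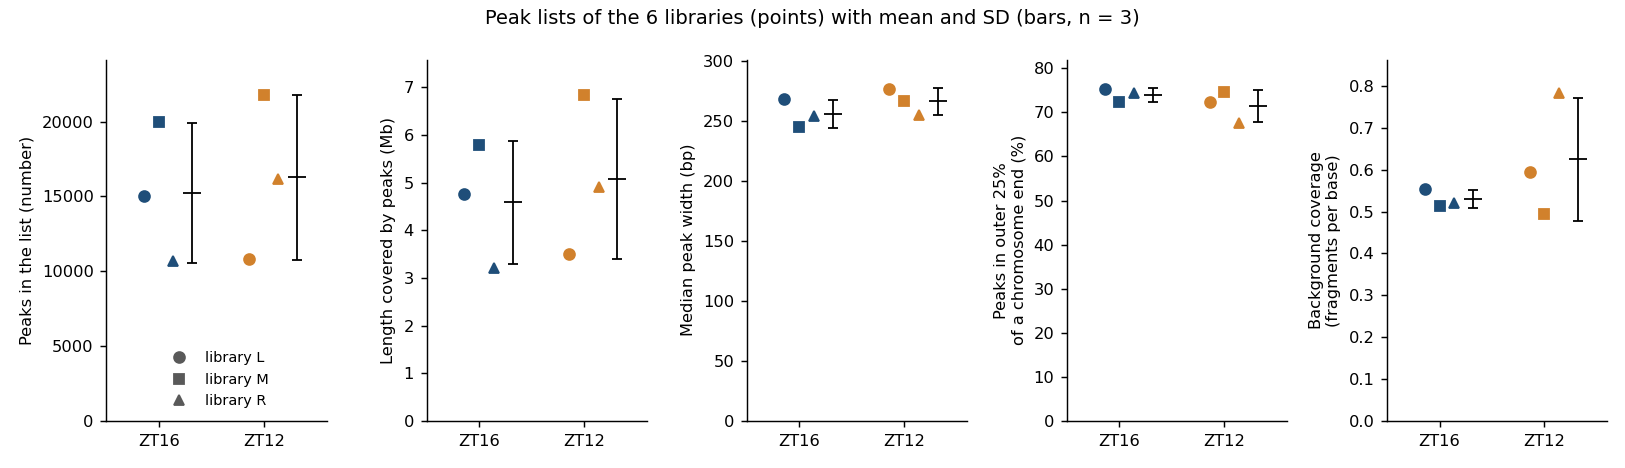
Each panel plots a measure of the peak lists for libraries L, M and R (points) of ZT16 and ZT12, with the mean and SD beside them (bars, n = 3): number of peaks, length covered in Mb, median peak width in bp, share of peaks in the outer 25% of chromosomes in %, and background coverage in fragments per base. The points of the 2 time points overlap in every panel, and ZT12 library R has the highest background, 0.784 fragments per base.

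By the overlap of their peaks, replicates of a time point were on average about as alike as libraries of different time points. The Jaccard index in base pairs, the shared length of 2 peak lists over their joint length, averaged 0.368 among the ZT16 libraries and 0.319 among the ZT12 libraries. Over both times the mean was 0.344 for the 6 pairs of the same time and 0.342 for the 9 pairs of different times. The difference was 0.00161 (one-sided exact permutation test over 10 splits, p = 0.3). With all peaks, the difference had the other sign without any one of the ZT16 libraries (-0.00930 without L, -0.00980 without M and -0.0129 without R). It was 0.0150, 0.0236 and 0.00302 without ZT12 libraries L, M and R. Each of these same-time means holds more pairs of the time that kept all its libraries, and the ZT16 and ZT12 pairs differed in mean. The change of sign is therefore not a measure of likeness alone. At the 4764 regions with a peak in all 6 libraries, Spearman's rho of −log10 q across regions averaged 0.760 for pairs of the same time and 0.744 for pairs of different times. These are correlations across regions, which are not independent replicates, and are given as a description.

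Most regions found in a single merged list had a peak in only 1 library of that time. Of the 26780 union regions, 13773 (51.4%) were in both merged lists, 5815 (21.7%) in the ZT16 list alone and 7192 (26.9%) in the ZT12 list alone. Regions in both lists had a median width of 451 bp, whereas those of a single list had 273 bp (ZT16 alone) and 299 bp (ZT12 alone). Of the regions in the ZT16 list alone, 4326 (74.4%) had a peak in only 1 ZT16 library and 343 (5.90%) in all 3. At least 1 ZT12 library nevertheless had a peak in 1235 of them (21.2%), and 79 had a peak in all 6 libraries. Of the regions in the ZT12 list alone, 5323 (74.0%) had a peak in only 1 ZT12 library and 421 (5.85%) in all 3. At least 1 ZT16 library had a peak in 1335 of these (18.6%), and 111 had a peak in all 6 libraries.

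A region was termed gained when all 3 ZT16 libraries and no ZT12 library had a peak in it, and lost in the reverse case. With all peaks, 127 regions were gained (0.474% of the 26780) and 164 were lost (0.612%), against 4764 regions (17.8%) with a peak in all 6 libraries. No single region can pass a test here, since Fisher's exact test on 3 against 3 calls cannot go below 0.1. The balance between gained and lost regions turned with the peaks that were counted. With the 10689 highest peaks by −log10 q in each list, the number in the smallest list, 170 regions were gained (0.635%) and 105 were lost (0.392%). With a −log10 q of at least 5, 97 were gained (0.362%) and 43 were lost (0.161%). When peaks had to cover 50% of a region, 124 were gained (0.463%) and 188 were lost (0.702%). No region gained with all peaks could be lost in these settings, or the reverse, since each setting only takes calls away. The regions themselves were only partly shared, however: 47 were gained both with all peaks and with equal numbers, which is 37.0% of the 127 and 27.6% of the 170, and 43 were lost in both, which is 26.2% of the 164 and 41.0% of the 105.

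Most of the regions gained with equal numbers of peaks had a weaker ZT12 peak in the full lists. Of these 170, 47 had no ZT12 peak at all, 96 had a peak in 1 ZT12 library and 27 in 2. Of the 105 regions lost with equal numbers, 43 had no ZT16 peak at all, 39 had a peak in 1 ZT16 library and 23 in 2. The balance also turned with single libraries. Gained minus lost regions was -37 with all libraries and became 437 without ZT16 library R (the list with the fewest peaks) and 366 without ZT12 library M (the list with the most peaks). It was -6, -170, -572 and -249 without ZT16 L, ZT16 M, ZT12 L and ZT12 R. The plot of gained and lost counts gives the values side by side.

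**Figure D2:**
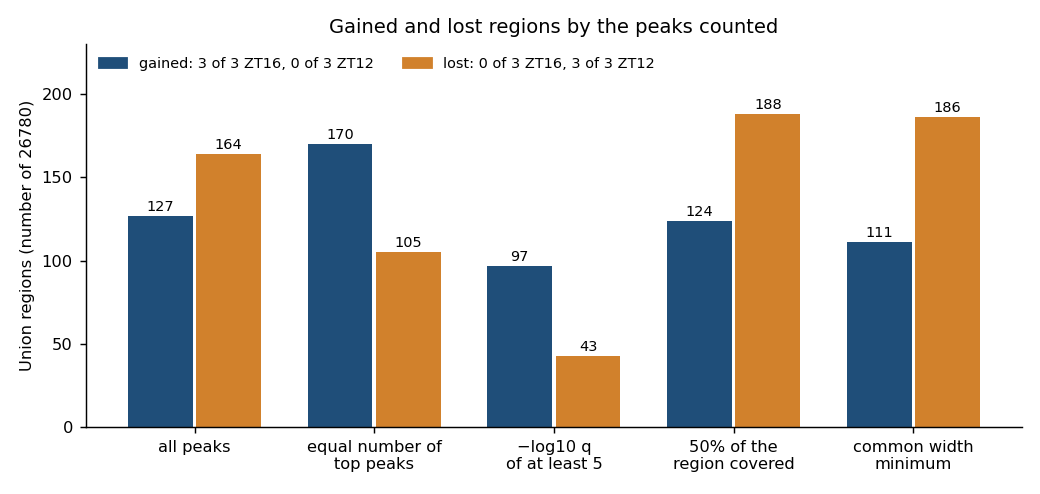
Bars give the number of the 26780 union regions that were gained (blue, left) or lost (orange, right) at ZT16, for 5 ways of counting peaks. Lost regions outnumber gained ones with all peaks (127 gained, 164 lost), while gained regions outnumber lost ones with equal numbers of top peaks (170 gained, 105 lost) and with a −log10 q of at least 5 (97 gained, 43 lost).

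The narrowest peak listed also differed between libraries, being 147, 141 and 150 bp in the ZT16 libraries L, M and R and 166, 150 and 154 bp in the ZT12 libraries L, M and R. No peak under 166 bp was thus listed in ZT12 library L, whereas such peaks made up between 7.98% and 14.4% of the other 5 lists. When all peaks under 166 bp were left out, an alternative chosen after seeing the data, 111 regions were gained (0.414%) and 186 were lost (0.695%). Of the 127 gained regions 82 remained gained, and of the 164 lost regions 141 remained lost.

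Gained and lost regions were mostly weak peaks. In each list, peaks were ordered by −log10 q, and the place of a peak is given as the upper percent of the list that it closes, so that a small value is a strong peak. The median place of the gained regions' peaks was the upper 63.9%, 54.7% and 69.8% of the ZT16 lists L, M and R. The lost regions' peaks lay at a median of 64.9%, 58.6% and 57.7% of the ZT12 lists L, M and R. The peaks of regions called in all 6 libraries were placed far higher, at medians of 20.0%, 15.4% and 27.8% in the ZT16 lists and 25.9%, 13.5% and 18.2% in the ZT12 lists. In fragments at the summit, recovered from the deposited values, gained regions had medians of 10, 10 and 9 in the ZT16 libraries, and lost regions had 8, 9 and 8.5 in the ZT12 libraries. The order by strength is a description, since a peak near the threshold of a list is also the one most easily missed in another.

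Gained and lost regions were spread over the genome. Both sets had members on all 20 chromosomes, between 3 (chromosomes 16 and 20) and 11 (chromosome 9) gained regions and between 4 (chromosome 15) and 15 (chromosome 8) lost regions. Union regions numbered 938 and 1107 on chromosomes 16 and 20, 1365 on chromosome 9, 1193 on chromosome 15 and 1645 on chromosome 8. Within 20 kb of another of the same set lay 2 regions of each set, and no such count over all union regions is given. The outer 25% of the chromosomes held 109 gained regions (85.8%), whereas 123 lost regions (75%) and 73.6% of all union regions were there. With equal numbers of peaks the order turned, with 77.6% of gained and 80.0% of lost regions in the outer 25%. The median width was 429 bp for gained and 449.5 bp for lost regions, against 558 bp for regions called in all 6 libraries and 361 bp for all union regions. The nearest region called in all 6 libraries was at a median of 38.3 kb from gained and 41.8 kb from lost regions, against 42.9 kb over all union regions.

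Strong examples of gained regions were few. The 8 described here headed the gained regions by their mean place among those also gained with equal numbers of peaks. The first, chr8:47786550-47786713, a region of 164 bp, held a peak in the upper 2.24%, 1.64% and 2.91% of the ZT16 lists L, M and R, and no ZT12 library had a peak in it. The next, chr18:6722926-6723088 (163 bp), lay in the upper 3.25%, 2.43% and 4.26% of the ZT16 lists. Both were narrow: their ZT16 peaks were 152, 151 and 158 bp wide on chromosome 8 and 156, 158 and 151 bp wide on chromosome 18, under the narrowest peak listed in ZT12 library L (166 bp). Neither was gained once peaks under 166 bp were left out. The region chr10:4632123-4632354 had 41, 37 and 33 fragments at the summit in the ZT16 libraries L, M and R, with peaks of 156, 168 and 230 bp, and kept 2 of its ZT16 calls with the width minimum. At ZT20 and ZT8 the region of chromosome 8 had peaks in 2 and 2 of 3 libraries, that of chromosome 18 in 3 and 1, and that of chromosome 10 in 1 and 1.

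The other 5 gained regions were wider, and all kept their 3 ZT16 calls with the width minimum. The region chr18:2857876-2860071 was the widest of the gained regions, at 2196 bp, with ZT16 peaks of 1459, 1430 and 1061 bp. Its summits had 48, 43 and 30 fragments in the ZT16 libraries L, M and R, in the upper 13.7%, 9.70% and 22.0% of the lists, and no ZT12 library listed a peak there. Outside the comparison it had a peak in 3 of 3 libraries at ZT0, 3 of 3 at ZT4, 0 of 3 at ZT8 and 3 of 3 at ZT20. The region chr8:268258-268680 had 19, 15 and 15 fragments at ZT16, in the upper 14.2%, 16.3% and 17.6% of the lists. It had peaks in 2 of 3 libraries at ZT0, ZT4 and ZT8 and 3 of 3 at ZT20. At chr19:49529551-49529867 the ZT16 summits had 14, 21 and 14 fragments (upper 29.5%, 8.69% and 18.3%), and 2 of 3 libraries had a peak at ZT20 and at ZT8 alike. At chr1:1084224-1084700 the ZT16 summits had 10, 19 and 17 fragments (upper 48.8%, 9.82% and 13.5%), with peaks in 3 of 3 libraries at ZT20 and 1 of 3 at ZT8. The last of the 8, chr7:8537613-8538136, had 26, 27 and 23 fragments at ZT16 (upper 30.3%, 20.2% and 24.1%), with peaks in 2 of 3 libraries at ZT20 and 0 of 3 at ZT8. More fragments thus did not always mean a higher place. The regions chr8:268258-268680 and chr19:49529551-49529867 remained gained in all 4 alternative ways of counting peaks.

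The 8 lost regions that headed their list by the same rule were between 200 and 493 bp wide. At chr15:49387912-49388111 (200 bp) no ZT16 library had a peak, while ZT12 libraries L, M and R had 24, 20 and 28 fragments at the summit, in the upper 7.95%, 11.9% and 5.51% of their lists. At chr13:43017478-43017731 no ZT16 library had a peak, and the ZT12 summits had 15, 19 and 22 fragments. This region and chr9:21994207-21994456 kept only 2 of their 3 ZT12 calls once peaks under 166 bp were left out, while the other 6 kept all 3. Another region of chromosome 13, chr13:37557568-37557987, had 24, 35 and 22 fragments in the ZT12 libraries L, M and R. At chr8:5507943-5508412 these libraries had 11, 28 and 14 fragments, and at the named region of chromosome 9 they had 19, 13 and 11. The remaining regions were chr5:35645188-35645416 with 14, 14 and 13 fragments at ZT12, chr14:36236623-36237031 with 14, 14 and 11, and chr9:18035275-18035767 with 12, 15 and 11. The regions of chromosomes 5 and 14 had no peak in any ZT20 or ZT0 library, and a peak in 1 of 3 ZT8 libraries each. In the other lost regions of the 8, between 1 and 2 of the 3 ZT20 libraries and between 1 and 2 of the 3 ZT8 libraries had a peak.

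The 12 libraries of the other 4 time points, had no part in choosing the regions and were set against both sets. Of the 127 gained regions, 37.8% ± 13.9 had a peak at ZT0, 47.0% ± 10.3 at ZT4, 32.3% ± 16.3 at ZT8 and 47.2% ± 9.83 at ZT20 (mean ± SD of 3 libraries). Of the 164 lost regions, 20.7% ± 6.45 had a peak at ZT0, 36.4% ± 9.45 at ZT4, 36.2% ± 15.5 at ZT8 and 19.1% ± 13.3 at ZT20. Over all union regions, which follow the number of peaks in each list, these shares were 31.9%, 41.3%, 39.9% and 35.2%. Gained regions were thus more often called than lost regions at ZT20, the sampling after ZT16, and not at ZT8, the sampling before ZT12. The difference between the shares of gained and lost regions, taken within each library, was 24.1, 30.1 and 30.2 percentage points in ZT20 libraries L, M and R, against -7.50, -0.0624 and -4.12 points in ZT8 libraries L, M and R. The values did not overlap.

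The difference between these time points (ZT20 minus ZT8) was 32.0 percentage points (28.1 ± 3.48 at ZT20 and -3.90 ± 3.73 at ZT8, SD, n = 3 each), with a 2-sided exact permutation p of 0.1, the smallest that 3 libraries against 3 can give. At ZT0 the difference between gained and lost regions was 6.98, 22.3 and 21.9 points in libraries L, M and R, and at ZT4 it was 11.8, 9.82 and 10.1 points. Relative to all union regions of the same library, the share of gained regions differed by 12.02 points at ZT20 and by -7.66 points at ZT8, a change of 19.7 points (exact permutation p = 0.1). The share of lost regions differed from that of all union regions by -16.1 points at ZT20 and by -3.76 points at ZT8 (exact permutation p = 0.1 for a change of -12.4 points). These shares against all union regions depended on the peaks that were counted. With the 7668 highest peaks of each list, the number in the smallest of the 18 lists, 125 gained and 92 lost regions were formed anew, and ZT20 minus ZT8 was 23.9 points (exact permutation p = 0.1). There, lost regions stood above all union regions, by 7.16 points at ZT20 and 12.1 points at ZT8, and gained regions stood above them at ZT8 too, by 11.7 points (30.6 points at ZT20). Without peaks under 166 bp it was 27.5 points (exact permutation p = 0.1). When the sets were formed without 1 of the ZT16 or ZT12 libraries, an alternative added after seeing the data, ZT20 minus ZT8 was 14.0 points without ZT12 library M (exact permutation p = 0.2) and between 21.4 and 26.7 points without any other (exact permutation p = 0.1 each). The sign at ZT8 was not kept: gained minus lost averaged 10.7, 21.4 and 7.62 points there without ZT12 L, M and R, and -16.4, -15.2 and -13.4 points without ZT16 L, M and R. Leaving out a library also loosened the rule, since the time point left with 2 libraries needed 2 calls, or none of 2, in place of 3. Both sets grew, for example to 173 gained and 745 lost regions without ZT12 L and 648 and 211 without ZT16 R. The library and the looser rule cannot be told apart here.

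Calls of the gained and lost regions at ZT20 and ZT8 are also given by the number of calling libraries. Of the 127 gained regions, 27 had a peak in all 3 ZT20 libraries and 9 in all 3 ZT8 libraries, while 29 had none at ZT20 and 50 had none at ZT8. Of the 164 lost regions, 0 had a peak in all 3 ZT20 libraries and 14 in all 3 ZT8 libraries, while 87 had none at ZT20 and 54 had none at ZT8. No peak in any of the 12 libraries was found in 5 gained and 16 lost regions. The same counts are not given for all union regions, so these are a description. Per library, 35.2% of all union regions had a peak at ZT20 and 39.9% at ZT8 (means of 3 libraries), which is another measure.

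**Figure D3:**
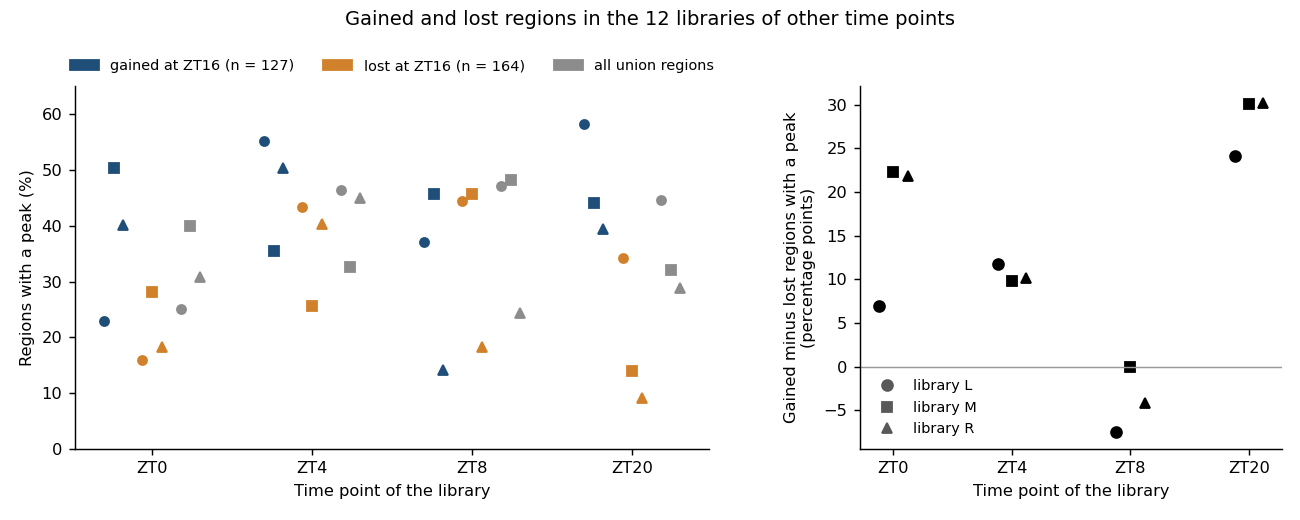
Left, percent of the gained (blue), lost (orange) and all union regions (grey) with a peak in each library L, M and R of ZT0, ZT4, ZT8 and ZT20. Right, share of gained minus share of lost regions in the same library, in percentage points: the ZT20 libraries lie between 24.1 and 30.2 and the ZT8 libraries between -7.50 and -0.0624.

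Regions with a peak in all 6 libraries were tested for their rank by −log10 q among these regions within each library. The upper percents given below are places among all peaks of a list, which the main test did not use. No region passed an adjusted p of 0.05 in limma's moderated test on normal scores of that rank (0 of 4764 in either direction, smallest adjusted p 0.314). At an unadjusted p under 0.05, 177 regions stood higher at ZT16 (3.72%) and 188 stood lower (3.95%), together 7.66% of those tested. When ranks were taken among all peaks of a list, 54 stood higher and 129 lower at that level, and 0 passed (smallest limma adjusted p 0.999). With equal numbers of top peaks, 4065 regions had a peak in all 6 libraries and again 0 passed, with 146 higher (3.59%) and 160 lower (3.94%) at an unadjusted p under 0.05. The 5 regions of smallest p in each direction are given as values that did not pass the test. Their places did not overlap between the times, which choosing by p favours, and 7.12% of the 4764 regions had places that did not overlap. At chr13:18433685-18434134 the strongest peak lay in the upper 5.88%, 4.26% and 7.89% of ZT16 lists L, M and R, against 29.1%, 26.7% and 32.3% of the ZT12 lists, with 36, 34 and 25 fragments at ZT16 and 13, 14 and 12 fragments at ZT12. Its difference in normal scores of the rank among the 4764 regions was 1.58 ± 0.196 (SE, limma adjusted p = 0.314). At chr9:7025204-7025938 the peaks lay in the upper 62.0%, 47.0% and 62.3% at ZT16, against 22.0%, 12.8% and 15.2% at ZT12. The difference in the same normal scores was -1.44 ± 0.153 (SE, limma adjusted p = 0.314). Here the fragments at the summit were 9, 10 and 8 at ZT16 and 17, 26 and 18 at ZT12.

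The other regions with higher places at ZT16 were chr3:45566983-45567380 (22, 19 and 16 fragments at ZT16, against 9, 13 and 11 at ZT12), chr9:46739615-46740394, chr7:35695553-35696201 and chr9:47030224-47030802. The last of these had 30, 26 and 17 fragments at ZT16 and 8, 12 and 11 at ZT12. Those with lower places at ZT16 were chr11:3919491-3920178, chr16:35942556-35942922, chr6:10376158-10376639 and chr18:53485070-53485739. On chromosome 6 the region had 9, 10 and 8 fragments at ZT16 and 17, 27 and 16 at ZT12. Fragments are given beside the places and were not compared by a test.

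**Figure D4:**
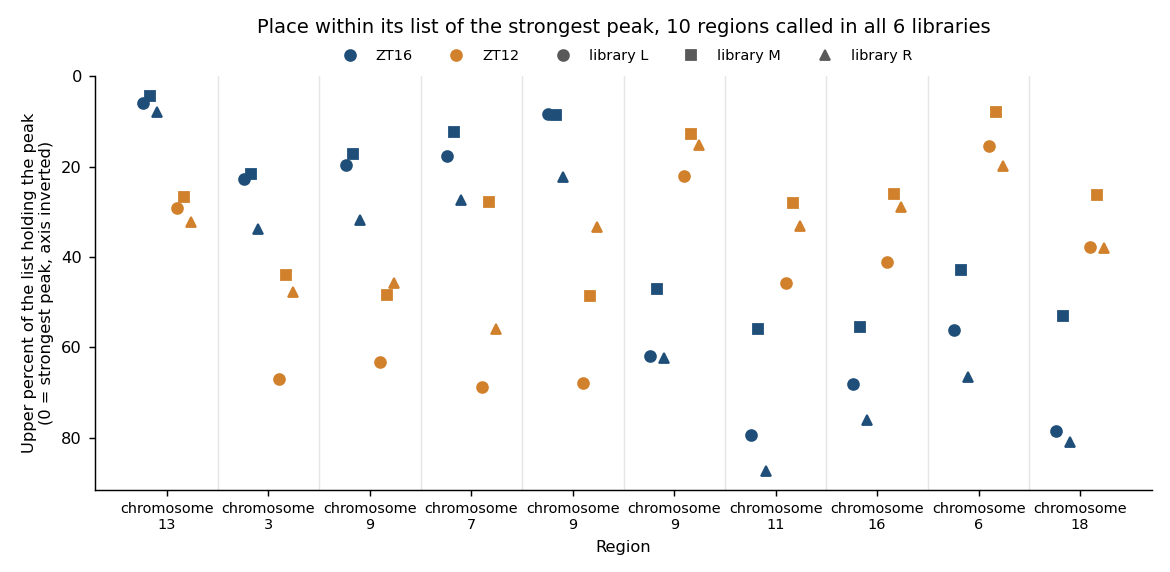
For the 5 regions with higher and the 5 with lower places at ZT16 of smallest p, named by chromosome and in the order of the text, points give the upper percent of its list that the strongest peak closes in libraries L, M and R of ZT16 (blue, left) and ZT12 (orange, right); the axis is inverted so that strong peaks stand at the top. The 2 groups do not overlap in any of the 10 regions, and none passed an adjusted p of 0.05. The p is that of ranks among the regions called in all 6 libraries, not of the places plotted.

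No width passed its test either. The length covered by peaks in these 4764 regions had medians of 375, 367 and 321 bp in the ZT16 libraries L, M and R and 338, 401.5 and 348 bp in the ZT12 libraries L, M and R. After the library medians were taken off on the log2 scale, 0 regions passed an adjusted p of 0.05 in limma's moderated test (smallest adjusted p 0.288), with 143 wider (3%) and 137 narrower (2.88%) at ZT16 at an unadjusted p under 0.05. With equal numbers of top peaks 0 of 4065 passed, with 130 wider (3.2%) and 111 narrower (2.73%) at an unadjusted p under 0.05. Without the library medians taken off, 86 were wider and 152 narrower at that level, and 0 passed. The region of smallest p, chr18:37170661-37171897, had peaks over 287, 195 and 179 bp at ZT16 and over 614, 970 and 648 bp at ZT12, a log2 difference of -1.72 ± 0.21 (SE). Peaks covered 253, 185 and 178 bp at ZT16 and 392, 555 and 557 bp at ZT12 of chr18:6991400-6992190, and 397, 444 and 385 bp at ZT16 and 730, 772 and 703 bp at ZT12 of chr2:27193904-27194929. In the other direction, they covered 955, 1091 and 724 bp at ZT16 and 256, 500 and 301 bp at ZT12 of chr15:49425837-49427098 (log2 difference 1.46 ± 0.23, SE). At chr8:20631261-20632086 the lengths were 420, 460 and 380 bp at ZT16 and 207, 225 and 229 bp at ZT12, and at chr18:56140989-56142042 they were 1012, 984 and 621 bp at ZT16 and 349, 513 and 381 bp at ZT12. In these 6 regions, chosen by p, the lengths did not overlap between the times, as in 9.26% of the 4764 regions, and none passed the test.

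Summit positions differed in few regions. The summit of the strongest peak spanned a median of 113 bp over the 6 libraries, and the distance between libraries was 35.8 bp for pairs of the same time and 35.9 bp for pairs of different times, as means of the pairs' medians. In limma's moderated test on summit position, 7 of 4764 regions passed an adjusted p of 0.05 (0.147%), 4 with the summit at a higher coordinate at ZT16 (0.084%) and 3 at a lower one (0.063%). At an unadjusted p under 0.05 there were 96 (2.02%) and 110 (2.31%), together 4.32%. The smallest p belonged to chr5:6132982-6134174, where summits lay 223, 205 and 205 bp from the start of the region in ZT16 libraries L, M and R and 1107, 989 and 1050 bp from it in ZT12 libraries L, M and R. The difference was -838 ± 32.0 bp (SE; limma adjusted p = 0.00850). This region held 2 peaks in 4 of the 6 libraries, and the position is that of the stronger one.

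At chr11:1613804-1614958 summits lay 58, 128 and 164 bp from the start at ZT16 and 999, 1073 and 972 bp at ZT12 (limma adjusted p = 0.00869). ZT12 library M held 2 peaks in this region, and its position is that of the stronger one. At chr1:56163762-56164307 they lay at 205, 199 and 213 bp at ZT16 and 420, 376 and 403 bp at ZT12 (limma adjusted p = 0.0285). The summits stood farther along the region at ZT16 at chr12:5236937-5237695, with 516, 488 and 477 bp at ZT16 and 262, 250 and 255 bp at ZT12, each from a single peak (limma adjusted p = 0.0174). They did so also at chr3:43300684-43301603, with 635, 652 and 696 bp at ZT16 and 264, 316 and 273 bp at ZT12 (limma adjusted p = 0.0211). The same held for chr10:49530261-49531016, with 507, 565 and 477 bp at ZT16 and 131, 78 and 131 bp at ZT12 (limma adjusted p = 0.0285). The last was chr17:15314337-15314805, with 382, 380 and 351 bp at ZT16 and 168, 187 and 194 bp at ZT12 (limma adjusted p = 0.0285), which was outside the naming rule and is given because it passed.

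**Figure D5:**
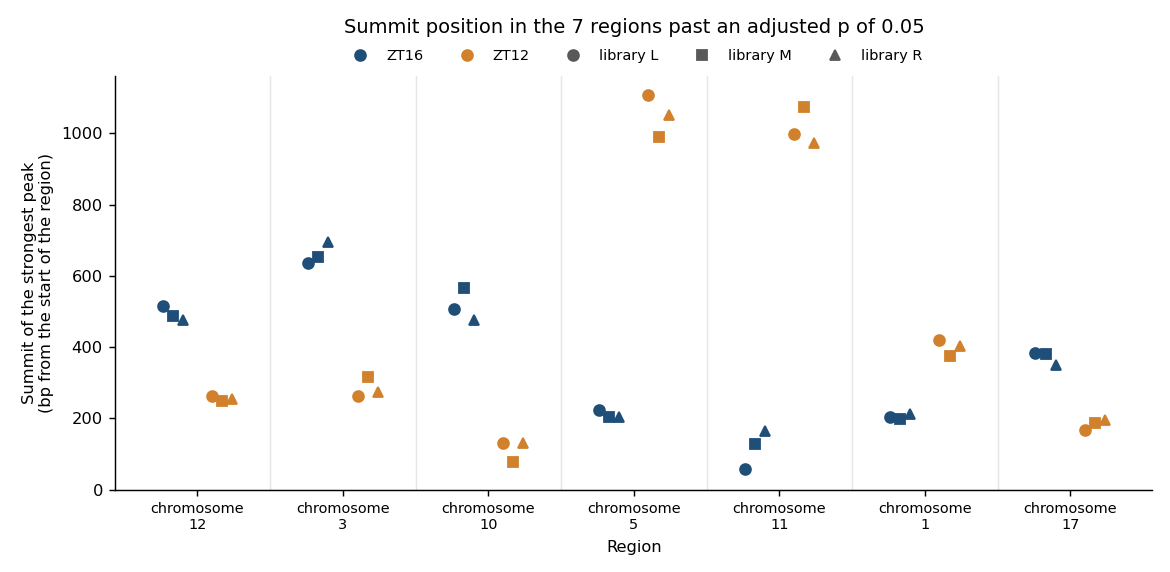
For the 7 regions that passed an adjusted p of 0.05 for summit position, named by chromosome, points give the distance in bp of the strongest peak's summit from the start of the region in libraries L, M and R of ZT16 (blue, left) and ZT12 (orange, right). The groups stand apart in each region, as summits did in 9.13% of the 4764 regions, with means (ZT16 minus ZT12) 188 bp apart on chromosome 17 and -898 bp apart on chromosome 11.

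The count of regions that passed for summit position depended on single libraries. It was 0 without ZT16 library M (smallest adjusted p 0.0583) and 0 without ZT12 library R (smallest adjusted p 0.0980), and between 6 and 8 without any other library. With equal numbers of top peaks 5 regions passed (0.0738% upward and 0.0492% downward of 4065, with 1.77% and 2.24% at an unadjusted p under 0.05), and 5 passed among the 4334 regions with a single peak in every library. Each of the 7 regions passed in between 2 and 5 of the 7 to 9 alternatives that could be run for it. Nor did the libraries of neighbouring times separate the 2 positions. In the 7 regions, summits lay nearer to the ZT16 position in 9 and nearer to the ZT12 position in 9 of the ZT20 peaks, and likewise in 9 and 9 of the ZT8 peaks, with 3 further cases without a peak at each time. The region of chromosome 5 had the summit near the ZT16 position in 3 of 3 ZT20 libraries, but also in 2 of 3 ZT8 libraries.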

How the data were processed

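Nuclei of first trifoliate leaves were tagmented with Tn5 and sequenced as paired ends. The authors trimmed reads with Trimmomatic 0.39, aligned them with Bowtie2 2.2.9 to Wm82.a2.v1 with up to 10 alignments kept per pair, and called peaks with MACS2 2.2.6 on whole fragments, in each replicate after sampling to a common depth and in merged reads. The paper describes keeping, for each time point, the peaks that were consistent between both kinds of calls. Keeping several alignments lets repeated sequence pile up. The deposited library lists give each peak's fold over background (a ratio), −log10 p and −log10 q, and summit. The deposited merged lists give positions only, and the methods name a removal of accessible regions of highest and of low signal without saying whether it preceded these lists. Fold and −log10 values were used within lists only. From them the whole number of fragments at the summit was recovered for peaks with a −log10 p under 50, meeting both values within 0.001 in −log10 p for 99.8% to 99.9% of these peaks. Median fragments per summit were 9 to 11 and the least 4 or 5, which sets the precision of single calls. Background is the most frequent local background of a list.

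Union regions were the joined merged lists of ZT16 and ZT12, and a region was called in a library where a peak overlapped it by 1 bp. Library values were compared by exact permutation tests with Benjamini-Hochberg adjustment over 5 measures. Rank, width and summit position were tested with limma 3.58.1 in R 4.3.3, one fit over all 4764 regions, with a threshold of 0.05 on adjusted p. In a simulated set for each measure, 100 regions were shifted by 6 median SDs and 100 others by 3, with normal noise of each region's own SD. Of those shifted by 6 SDs, limma recovered 75 for rank, 80 for width and 60 for summit position. Of those shifted by 3 SDs it recovered 35, 36 and 30, with 7, 6 and 8 false calls among the unshifted regions of the sets. Summits that switch between separate peaks were not simulated. Alternatives were equal numbers of top peaks, a −log10 q of at least 5, 50% overlap, other ranks and centring, the replicate letter as a block, and each library left out. The common width minimum and the follow-up of ranks and summits at other times, and of sets formed otherwise, were added after seeing the data. Named regions were the first 8 gained and lost, by mean place among those also gained or lost with equal numbers of peaks, the 5 of smallest p each way for rank and the 3 each way for width and summits. The members and lists were chosen with earlier results of these data known. Counts of fragments cover counting error only. Scripts used scipy 1.17.1, pandas 2.3.3 and numpy 2.4.6 under Python 3.11.15, with matplotlib 3.10.9 for plots. The 12 further samples (wild type and clock mutants) were not analysed here.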

Additional observations from a re-analysis of the deposited data

Results flagged for a closer look

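Regions with a peak in all 6 libraries were found outside both merged lists. When the peaks of the 6 libraries were joined, 4872 regions had a peak in every library, and 113 of these (2.32%) were in neither the ZT16 nor the ZT12 merged list. The region-by-region comparisons did not use them, whereas the measures of whole peak lists did. They were among the strongest peaks: their median place was the upper 0.389% of a list, against 19.4% for the 4759 regions that were in a merged list. In 80 of the 113 (70.8%) the peak was in the upper 1% of at least 4 lists, against 1.18% of the regions in a merged list. The study's methods name a step that excludes accessible regions of highest signal, and whether it removed these was not tested.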

How the results depend on the processing

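Of the alternatives tried, 3 were added after seeing the data: the common width minimum, the sets of equal numbers followed in all peaks of the other lists, and the sets formed without 1 library. With equal numbers of top peaks, lost regions numbered 105, gained minus lost was 65, and gained regions made up 61.8% of both sets in place of 43.6%. With a −log10 q of at least 5 lost regions numbered 43, gained minus lost was 54 and the gained share 69.3%, while the differences between ZT16 and ZT12 were 518 peaks, 0.00271 Mb covered and -0.00374 in the Jaccard index within minus between times. Gained minus lost was -64 with 50% of the region covered and -75 with the common width minimum. Leaving out 1 library gave 173 to 685 gained regions, 211 to 745 lost regions, -572 to 437 for gained minus lost and 18.8% to 75.4% for the gained share, where the time point left with 2 libraries needs 2 calls in place of 3. It gave differences of -3768 to 1728 peaks, -1.29 to 0.387 Mb covered and -0.0129 to 0.0236 in the Jaccard index. The same-time mean of the Jaccard index then weighs the time points unequally. For summit position, 0 to 8 regions passed an adjusted p of 0.05 in limma. For rank and width, 0 regions passed an adjusted p of 0.05 in limma under every alternative run.

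The replicate letters did not pair the libraries: correlations of the deviations of libraries with the same letter were between -0.0363 and 0.0521 over calls, ranks, widths and summits. With the letter as a replicate block, 0 regions passed for summit position (smallest limma adjusted p 0.358), against 7 without it, and 0 for rank and width. The ZT20 minus ZT8 difference between gained and lost regions remained between 23.9 and 34.8 percentage points over 3 alternatives (34.8 for the sets of equal numbers in all peaks) and between 30.2 and 34.0 points when 1 ZT20 or ZT8 library was left out, but fell to between 14.0 and 26.7 points when the sets were formed without 1 ZT16 or ZT12 library. The lost regions alone, against all regions, gave -4.97 points with equal numbers of peaks (exact permutation p = 0.2). The few fragments per peak limit what a missing call can show.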

Other observations

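Regions that differed in rank between ZT16 and ZT12 at an unadjusted limma p under 0.05 (365 of 4764) were followed at the other time points where they had a peak in all 18 libraries (61 higher and 53 lower at ZT16), a choice made after seeing the data. The mean normal score of regions higher at ZT16 minus that of regions lower at ZT16 was -0.000346 at ZT0, 0.00751 at ZT4, -0.199 at ZT8 and 0.0231 at ZT20. The ZT20 minus ZT8 difference was 0.222 (exact permutation p = 0.3, between 3 libraries each), and between 0.161 and 0.323 when 1 library was left out.

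Summits varied among libraries of the same time as well. In 1770 of the 4764 regions (37.2%) the 6 summits spanned at least 150 bp, and in 174 of these (9.83%) the ZT16 and ZT12 summits did not overlap, against 9.13% over all 4764. A gap of at least 100 bp between the time points was found in 22 regions (0.462%).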
